A study of Mus musculus with 6 samples.

Results

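Messenger RNA levels of 28 genes of cholesterol synthesis, sterol transport and their control by sterol regulatory element binding proteins (SREBPs) were followed in mouse embryonic fibroblasts. The genes were taken by symbol from a list, 7 for the mevalonate steps, 3 for the squalene steps, 8 for the sterol steps, 5 for SREBP control, 3 for sterol uptake and transport and 2 for export, and all 28 were found among the 48897 genes of the deposited table. The fibroblasts were of the C57BL/6 strain, at passages 5 to 7, and 3 groups of 2 libraries each were sequenced after poly(A) selection. TCZ cells received TNF-α, cycloheximide and z-VAD-fmk, TC cells received TNF-α and cycloheximide, and control cells received PBS. TNF-α is an inflammatory cytokine, cycloheximide stops translation and z-VAD-fmk inhibits caspases. The labels place the series in the study of apoptosis and necroptosis. No group received TNF-α, cycloheximide or z-VAD-fmk alone, so the share of each agent cannot be told apart, and the doses and times of treatment were not given in the sources used here.

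Cells build cholesterol from acetyl-CoA. The mevalonate steps make farnesyl diphosphate, the squalene steps join and close it to lanosterol, and the sterol steps trim lanosterol to cholesterol. When membranes of the endoplasmic reticulum (ER) hold little cholesterol, the escort protein SCAP carries SREBP to the Golgi, where proteases release a transcription factor that switches on most genes of the pathway. When cholesterol is plentiful, INSIG proteins hold SCAP and SREBP in the ER. Imported cholesterol leaves lysosomes through NPC1 and NPC2, and surplus cholesterol leaves the cell through ABCA1 and ABCG1, whose genes answer to the oxysterol sensors LXR.

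Total counts were 24922627 to 52909926 per library, with control 2 and TCZ 2 set off from the remaining 4 by low depth and few counts of the small RNA Rnu1a1. Rnu1a1, a spliceosomal RNA, had 231 and 1 counts in TCZ, 242 and 274 in TC and 165 and 3 in control. Another small RNA, Rn7s1, had 5789 and 4 counts in TCZ, 5704 and 6106 in TC and 4916 and 1338 in control, so it was nearly absent in TCZ 2 only. Results that change without control 2 and TCZ 2 are named below. The label of the cells was checked against 10 fibroblast markers, whose summed level was 6769 to 6998 RPKM (reads scaled by gene length and library total) in TCZ, 6535 to 6612 in TC and 7796 to 7840 in control. Col1a1, Vim, Fn1 and Col1a2 carried most of that sum. Against control 1 of the 10 was higher and 2 were lower in TCZ, and 2 were higher and 6 lower in TC. In the same test, described below, 31.5% of all genes were higher and 28.6% lower in TCZ, and 31.5% and 29.1% in TC. Pdgfrb had 43.2 and 43 RPKM in TCZ, 24.6 and 24.1 in TC and 89.5 and 91.2 in control, and Pdgfra had 2.06 and 1.86 in TCZ, 8.08 and 7.65 in TC and 14.7 and 14.2 in control. Of the 5 epithelial markers 4 were higher in TC than in control, against 31.5% of all genes. Their summed level was 9.02 to 11.2 RPKM in TCZ, 51.5 to 56.4 in TC and 13.2 to 14.2 in control. Krt19 made up most of that sum, while the defining markers Epcam and Cdh1 stayed at 0.321 RPKM or below in all 6 libraries. For 4 endothelial markers the sum was 10.4 to 10.9 RPKM in TCZ, 25.0 to 26.3 in TC and 2.38 to 2.71 in control. Kdr made up most of it in TC, and Pecam1 was at 0.0467 RPKM or below in TC and control and at 2.56 and 2.68 in TCZ. For 5 macrophage markers the sum was 12.7 to 12.9 RPKM in TCZ, 6.71 to 8.18 in TC and 8.53 to 8.54 in control, with Ptprc and Adgre1 at 0.192 RPKM or below. Lyz2 made up most of it, at 9.1 and 9.0 RPKM in TCZ, 4.1 and 5.0 in TC and 6.3 and 6.1 in control. For 5 adipocyte markers the sum was 17.9 to 18, 11.1 to 11.8 and 14.9 to 16.3 RPKM, in the same order of groups, with Adipoq, Plin1 and Cidec at 0.215 RPKM or below. Lpl made up most of that sum, at 14.4 and 14.9 RPKM in TCZ, 9.3 and 8.6 in TC and 12.1 and 13.1 in control. The part of these markers in the results below was not tested, and in bulk RNA fewer cells of a type cannot be told apart from less RNA per cell.

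In TC cells most of the 28 genes were lower than in control, and nearly all were higher in TCZ than in TC. The 28 genes together took 0.252% to 0.258% of all counts in TCZ, 0.155% in both TC libraries and 0.276% to 0.279% in control. The quasi-likelihood test of edgeR was run over the 18563 genes with enough counts, which held all 28, and a gene was called at a Benjamini-Hochberg adjusted p under 0.05. In TC against control 20 of 28 were lower, where 29.1% of all genes tested were lower, and 3 were higher, where 31.5% of all genes were. The median log2 fold change was -0.65 for these genes and 0.02 for all genes tested. A fall of at least 2-fold was called for 8 of the 28, against 11.7% of all genes.

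In TCZ against control 12 genes were higher and 8 lower, where 31.5% of all genes were higher and 28.6% lower, and the median log2 fold change was 0.09 for these genes and 0.05 for all genes. Those shares lie near the background for the lower calls and above it for the higher ones. When counts were scaled by library totals only, 10 were higher and 12 lower, where 24.5% of all genes were higher and 37.8% lower. Hmgcs1, Sc5d, Insig2 and Srebf2 were then called lower, and Fdft1 and Nsdhl were not called. In TCZ against TC 24 of the 28 were higher and 3 lower, where 28.2% of all genes were higher and 27.9% lower, with a median of 0.72 for these genes and 0.02 for all. At least 2-fold higher were 10 of them, against 11.6% of all genes. Both treated groups are set against the same control libraries, so their values are given side by side.

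By their calls in the 3 comparisons the genes fell into a few patterns. How many of all genes tested share each pattern was not counted, so the pattern counts are a description only. Some places rest on calls against control that alternatives lost (Fdft1, Nsdhl, Stard4, Abca1 and Abcg1), and other genes gained a call under some alternatives. Acat2, Hmgcs1, Mvk, Msmo1, Ebp, Sc5d and Srebf2, 7 genes, were lower in TC than in control, higher in TCZ than in TC, and not called between TCZ and control. Mvd, Idi1, Fdft1, Cyp51, Nsdhl and Insig1, 6 genes, were lower in TC than in control and higher in TCZ than in both. Sqle, Dhcr7, Scap, Stard4 and Npc1, 5 genes, were lower than control in both treated groups, with TCZ above TC. Pmvk, Fdps, Tm7sf2, Hsd17b7 and Npc2, another 5 genes, were not called in TC against control and were higher in TCZ than in both other groups. Lss, Abcg1, Insig2, Abca1 and Srebf1 each had a pattern of their own.

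**Figure D1:**
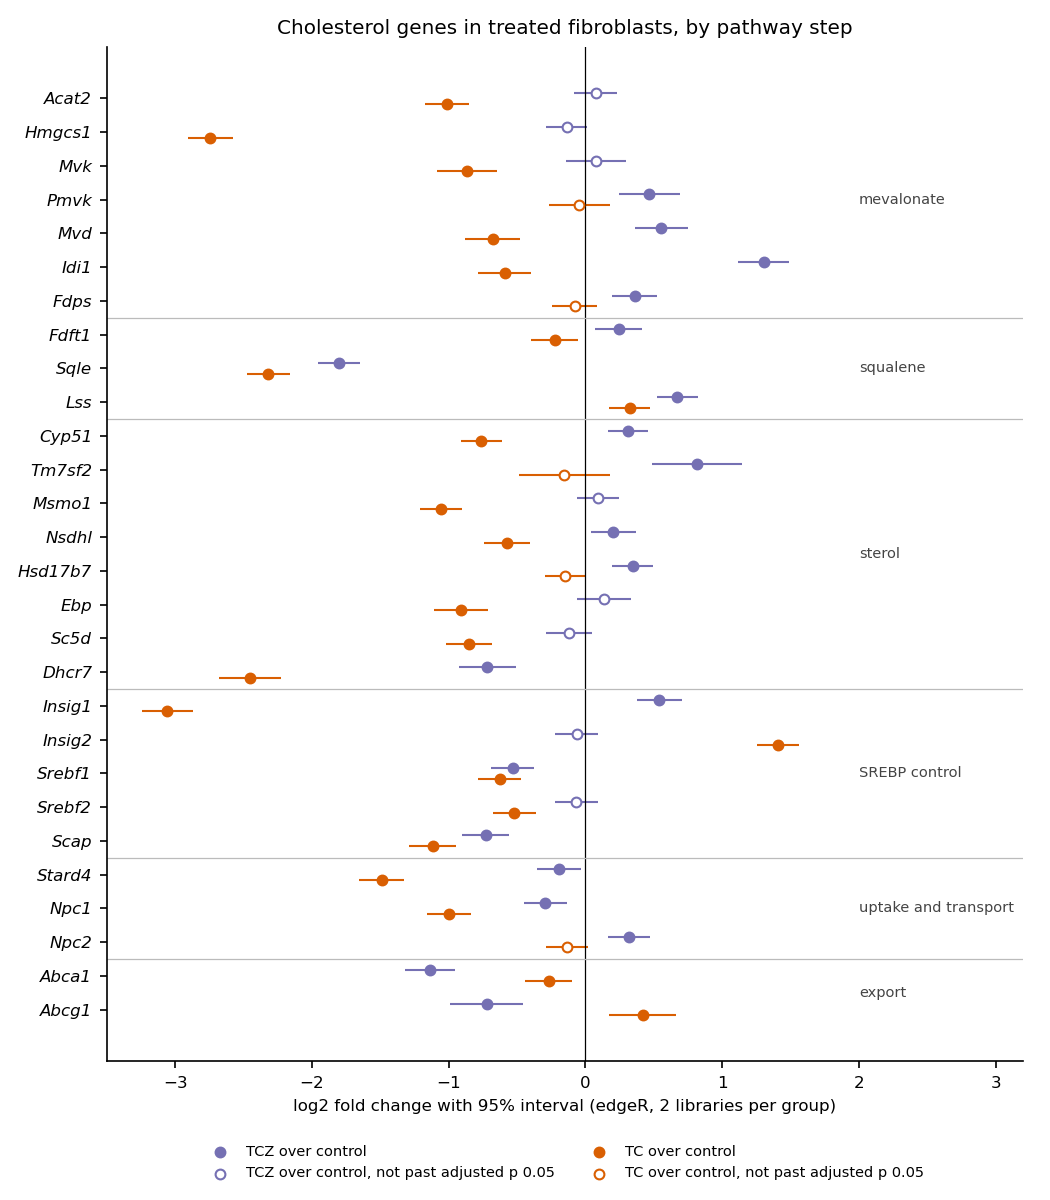
Log2 fold change of each of the 28 genes in TCZ over control (purple) and TC over control (orange), with 95% intervals from edgeR and 2 libraries per group. Open circles did not pass an adjusted p of 0.05, and grey lines part the pathway steps. Insig1 lay at 0.54 in TCZ and -3.06 in TC, while Insig2 lay at -0.06 in TCZ and 1.41 in TC.

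Start windows are shown for the genes at both ends of the TC response, since genes that moved together and a paralog pair that moved apart can be read beside their promoters. RefSeq (build GRCm38.p6) gave windows for 22 of the 28 genes, each from 250 bases before to 50 after an annotated start. Insig1, Hmgcs1 and Dhcr7 had the lowest log2 fold changes in TC against control among genes with a window, and Insig2 and Lss the highest. The windows lie at chr5:28071162-28071461, plus strand (Insig1), chr13:119690101-119690400, plus strand (Hmgcs1), chr7:143822917-143823216, plus strand (Dhcr7), chr1:121332540-121332839, minus strand (Insig2) and chr10:76531355-76531654, plus strand (Lss). Dhcr7 and Insig2 each have 3 windows, of which the one at the start given in the deposited table is shown. In the Dhcr7 window shown none of the capitalised motifs occurs, though an NF-Y box and an E-box were found when all 3 windows of Dhcr7 were searched. All are written 5′ to 3′ on the gene's strand, and capitals mark a sterol element (TCACNCCAC), an E-box (CACGTG) or an NF-Y box (CCAAT, or ATTGG on the other strand).
Insig1: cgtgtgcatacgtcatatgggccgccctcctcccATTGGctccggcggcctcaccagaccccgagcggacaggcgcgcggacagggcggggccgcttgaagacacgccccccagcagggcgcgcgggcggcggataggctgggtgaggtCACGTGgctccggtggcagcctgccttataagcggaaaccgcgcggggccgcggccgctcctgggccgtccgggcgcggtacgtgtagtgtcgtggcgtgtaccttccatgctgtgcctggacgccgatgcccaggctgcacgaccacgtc
Hmgcs1: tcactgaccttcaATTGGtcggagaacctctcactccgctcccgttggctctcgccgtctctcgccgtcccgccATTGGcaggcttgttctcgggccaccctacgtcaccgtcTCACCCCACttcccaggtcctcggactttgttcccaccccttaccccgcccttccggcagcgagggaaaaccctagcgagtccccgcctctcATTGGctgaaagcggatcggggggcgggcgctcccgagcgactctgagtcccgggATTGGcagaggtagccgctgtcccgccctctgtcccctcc
Dhcr7: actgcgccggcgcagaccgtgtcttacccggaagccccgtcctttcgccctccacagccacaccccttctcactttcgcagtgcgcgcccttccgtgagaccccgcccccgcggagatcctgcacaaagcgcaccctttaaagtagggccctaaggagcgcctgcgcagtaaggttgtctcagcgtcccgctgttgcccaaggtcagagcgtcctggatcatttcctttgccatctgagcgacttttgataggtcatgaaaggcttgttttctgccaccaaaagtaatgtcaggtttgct
Insig2: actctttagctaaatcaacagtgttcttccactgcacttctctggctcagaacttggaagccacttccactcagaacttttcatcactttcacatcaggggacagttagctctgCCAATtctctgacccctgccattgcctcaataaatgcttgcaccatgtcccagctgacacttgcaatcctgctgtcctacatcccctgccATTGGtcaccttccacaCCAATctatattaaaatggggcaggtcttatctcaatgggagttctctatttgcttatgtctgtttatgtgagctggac
Lss: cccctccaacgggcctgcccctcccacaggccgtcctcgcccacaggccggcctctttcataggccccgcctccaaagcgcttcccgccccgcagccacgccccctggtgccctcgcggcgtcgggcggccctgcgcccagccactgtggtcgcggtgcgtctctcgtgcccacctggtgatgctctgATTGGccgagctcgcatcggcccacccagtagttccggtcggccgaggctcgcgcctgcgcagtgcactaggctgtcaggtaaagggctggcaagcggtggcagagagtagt

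The letters of the NF-Y box, bound by a general factor that works beside SREBP at many sterol genes, occurred in 19 of the 22 genes with a window, or 86.4%, on either strand. These counts take in every window of a gene, and in the single window per gene that was used for positions 18 genes held an NF-Y box, 5 an E-box and 19 a GC box. With every window of a gene counted, the NF-Y box occurred in 42.1% of the 12194 tested genes with a window. It was in 37.4% of all 32851 windows. In the single window used for positions Hmgcs1 held 4 NF-Y boxes, Mvk 5, Insig2 3 and Insig1 1. The sterol element was found in Hmgcs1, 137 bases before the start, and in no other of the 22 genes (4.55%), against 1.46% of tested genes. An E-box, which SREBP can also bind, was in 6 of the 22 genes, or 27.3%, against 11.0% of tested genes, and in Insig1 it lay 101 bases before the start. The GC box GGGCGG, a binding site of SP1, was in 21 of the 22 genes and in 63.4% of tested genes. Insig1 and Insig2, which moved in opposite directions in TC, both held NF-Y boxes. A match is a description of letters, and a missing one says only that those letters are not in the window.

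**Figure D2:**
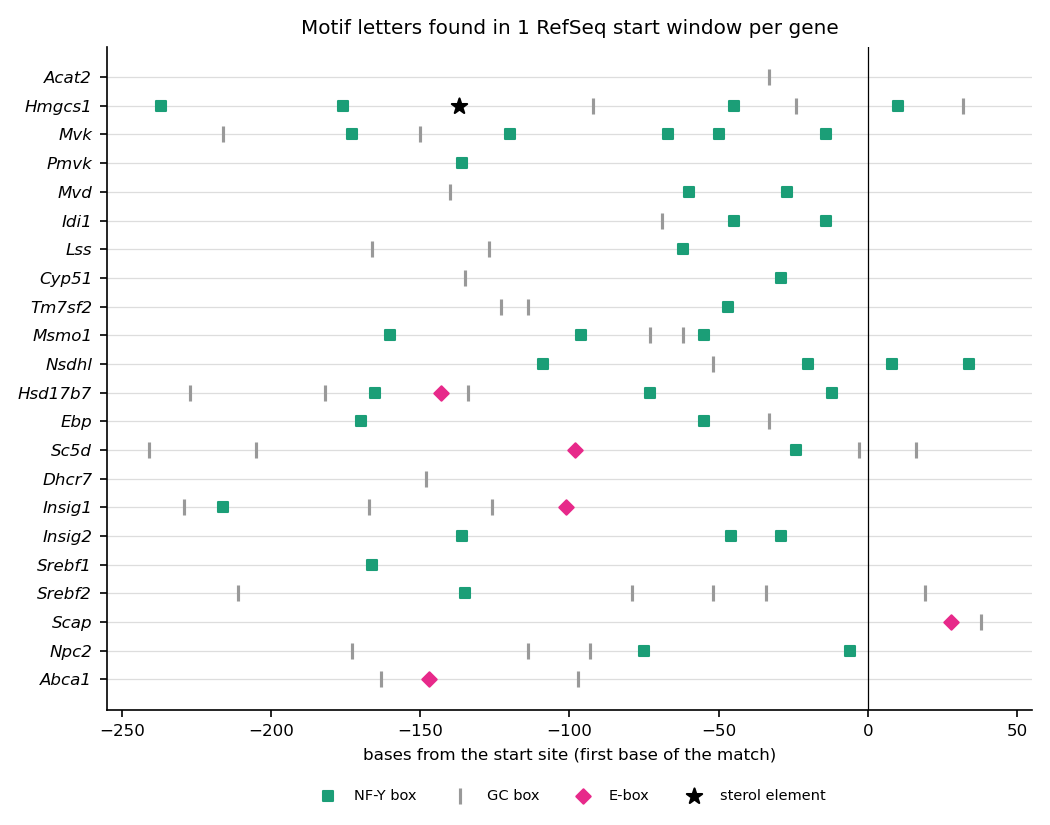
Positions of the 4 motifs in 1 RefSeq start window for each of the 22 genes, as bases from the start site on the gene's strand. Green squares (NF-Y box) appear in most rows, and the single star (sterol element) lies 137 bases before the start of Hmgcs1.

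The mevalonate steps were compared first. In TC 5 of the 7 genes were lower than control and none was higher (median log2 fold change -0.68). Of all genes tested, 29.1% were lower and 31.5% higher in TC (median 0.02). In TCZ 4 were higher than control and none was lower (median 0.36), where 31.5% and 28.6% of all genes were (median 0.05). All 7 were higher in TCZ than in TC (median 1.09), against 28.2% of all genes (median 0.02). The summed level of the 7 enzymes was 268 to 283 RPKM in TCZ, 138 and 140.1 in TC and 259 in both control libraries.

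Hmgcs1 (chromosome 13, 119690351 to 119708260, plus strand, build mm10) encodes HMG-CoA synthase, which joins acetoacetyl-CoA and acetyl-CoA. It had 260.2 and 249 CPM in the TCZ libraries, 43.6 and 40.3 in the TC libraries and 292 and 269 in the control libraries, where CPM are counts relative to a library size adjusted by TMM. The TC libraries lay far below the others, and no groups overlapped. TC was lower than control, with a log2 fold change of -2.74 ± 0.08 (SE, adjusted p = 1.07e-17), and TCZ was 6.08-fold higher than TC (adjusted p = 1.26e-16). Between TCZ and control the log2 difference was -0.14 with a 95% interval of -0.29 to 0.01 and did not pass (adjusted p = 0.112). It passed when control 2 was left out (-0.21, adjusted p = 0.0393), when TCZ 2 was left out as well (-0.17, 0.0428) and with a term for both libraries (-0.14, 0.0181).

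Acat2, which makes the acetoacetyl-CoA used by HMGCS1, had 48.6 and 47.6 CPM in the TCZ libraries, 23.1 and 22 in the TC libraries and 46.5 and 44.6 in the control libraries. Its paralog Acat3, which can share reads, stayed near or below 1.08 CPM. Acat2 was below its control level in TC (fold 0.495, adjusted p = 1.59e-10) and close to it in TCZ (fold 1.05, 95% interval of the log2 value -0.08 to 0.23). The mevalonate kinase gene Mvk followed the same course, with 26.9 and 22.5 CPM in the TCZ libraries, 12.1 and 13.8 in the TC libraries and 25 and 22 in the control libraries, and a fold of 0.549 in TC over control (adjusted p = 3.32e-07).

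Idi1, the isomerase that supplies the reactive isoprenoid unit, rose above control in TCZ by more than any other of the 28 genes. It had 123 and 104 CPM in the TCZ libraries, 32.2 and 29.2 in the TC libraries and 49.8 and 42.3 in the control libraries. TC was below control (-0.59 ± 0.09, adjusted p = 9.27e-06) and TCZ was 2.47-fold above it (adjusted p = 3.62e-11). Mvd, the decarboxylase that acts just before it, moved alike but less, with 38.2 and 33.2 CPM in the TCZ libraries, 14.2 and 16.3 in the TC libraries and 24.6 and 24.1 in the control libraries and 1.47-fold the control level in TCZ (adjusted p = 2.49e-05).

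Fdps, which builds farnesyl diphosphate, was the gene of the 28 with the highest RPKM in each group. It was not called in TC against control (-0.08, 95% interval -0.24 to 0.08) and was 1.28-fold higher in TCZ than in control, at 184 and 158 CPM in the TCZ libraries, against 138 and 129 in the control libraries. With a term for control 2 and TCZ 2 it was lower in TC (-0.16, adjusted p = 0.0213), and also with library totals (-0.22, 0.00159). Pmvk, the second kinase of the route, had 17.3 and 17.1 CPM in the TCZ libraries, 11.3 and 12.8 in the TC libraries and 12 and 12.8 in the control libraries. Its TC and control libraries overlapped, and TCZ lay above both.

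Against control the 3 squalene genes differed from one another. In TCZ 2 were higher and 1 lower than control, where 31.5% and 28.6% of all genes were. In TC 1 was higher and 2 lower, where 31.5% and 29.1% were. With 3 genes, these counts are no result about the step. All 3 were higher in TCZ than in TC, against 28.2% of all genes. Their summed level was 43.2 and 42 RPKM in TCZ, 32.5 and 33.1 in TC and 78.2 and 82.5 in control. Sqle (chromosome 15, 59315092 to 59331193, plus strand) encodes squalene epoxidase, a rate-controlling enzyme that oxidises squalene. It had 42.7 and 40.3 CPM in the TCZ libraries, 29.4 and 28.7 in the TC libraries and 146 and 144 in the control libraries, so both treated groups lay far below control and TCZ only a little above TC. The log2 fold change was -1.80 ± 0.07 in TCZ against control (adjusted p = 3.47e-15), -2.32 ± 0.07 in TC against control (adjusted p = 7.09e-17) and 0.52 ± 0.07 in TCZ against TC (adjusted p = 4.92e-06). In RPKM its rank among the 28 genes was 15 in TCZ, 15 in TC and 6 in control.

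Lss, the lanosterol synthase that acts on the product of SQLE, was the only synthesis gene higher than control in both treated groups. It had 132 and 124 CPM in the TCZ libraries, 100.2 and 101 in the TC libraries and 80.4 and 80.3 in the control libraries, with folds of 1.59 in TCZ (adjusted p = 3.97e-08) and 1.25 in TC (adjusted p = 0.000471) over control. Fdft1, the squalene synthase, was 0.24 ± 0.08 in TCZ and -0.22 ± 0.08 in TC against control (adjusted p = 0.0144 and 0.023). Leaving the low-count filter out ended both Fdft1 calls (adjusted p = 0.0918 in TCZ and 0.142 in TC). The TCZ call was also lost without control 2 (0.181), without TCZ 1 (0.325) and with library totals (0.569), and the TC call without control 1 (0.216) or TC 1 (0.275), in adjusted p. Over 774 bases Fdft1 overlaps the protease gene Ctsb on the other strand, which held 120280 counts against 21369 for Fdft1 and had folds of 1.17 in TCZ and 0.864 in TC over control. The strand setting of the counting is not given, so reads of the pair cannot be told apart there.

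**Figure D3:**
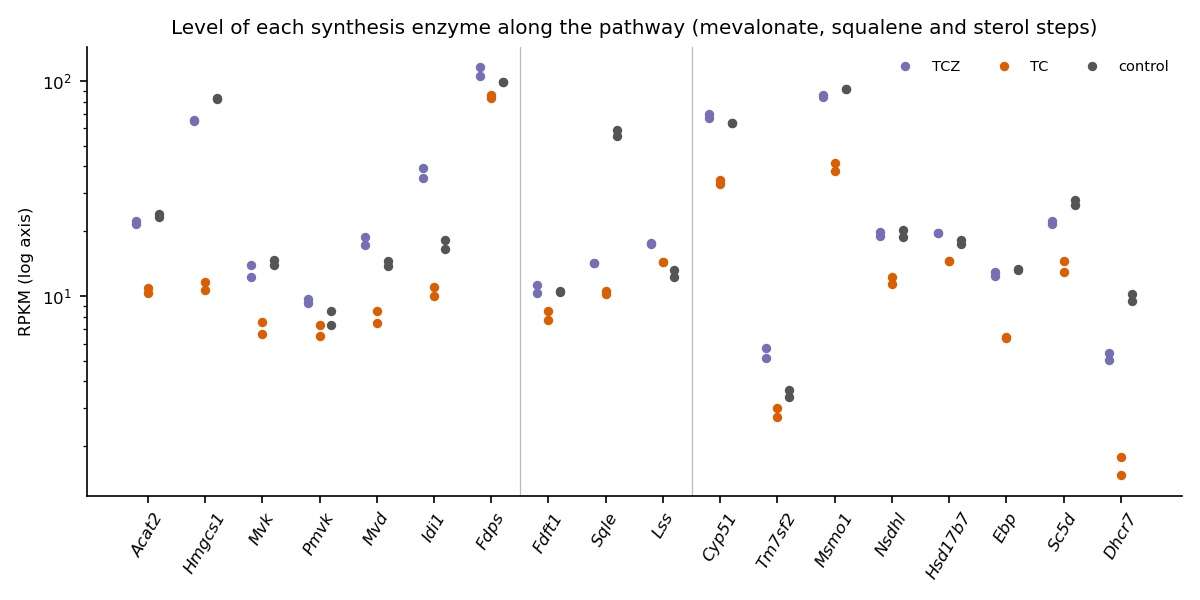
Level of the 18 synthesis enzymes in each library, in RPKM on a log axis, in the order of the pathway from left to right; grey lines part the mevalonate, squalene and sterol steps. Points are single libraries of TCZ (purple), TC (orange) and control (grey). RPKM is scaled by library totals. Sqle had 14.2 RPKM in both TCZ libraries, against 55.4 and 58.9 RPKM in control.

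Among the 8 sterol genes 6 were lower in TC than in control and none was higher (median -0.80), where 29.1% and 31.5% of all genes were. In TCZ 4 were higher than control and Dhcr7 was lower (median 0.17), where 31.5% and 28.6% of all genes were. All 8 were higher in TCZ than in TC (median 1.01), against 28.2% of all genes. The summed level was 236 and 241 RPKM in TCZ, 128 and 121 in TC and 246 in both control libraries.

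Dhcr7 (chromosome 7, 143823167 to 143848410, plus strand), a reductase that forms cholesterol at the end of the route, had the largest fall of these genes in TC. Its values were 17.2 and 17.5 CPM in the TCZ libraries, 4.70 and 5.70 in the TC libraries and 28.6 and 28.4 in the control libraries, 3 separate levels with no overlap. Both treated groups were lower than control, with a log2 fold change of -0.72 ± 0.10 in TCZ (adjusted p = 2.07e-06) and -2.45 ± 0.11 in TC (adjusted p = 1.62e-14), and TCZ was 3.33-fold higher than TC (adjusted p = 1.97e-11).

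Cyp51, the lanosterol demethylase, had 320.0 and 315 CPM in the TCZ libraries, 154 and 148 in the TC libraries and 266 and 246 in the control libraries. Against control it was higher in TCZ (log2 fold change 0.31 ± 0.07, adjusted p = 0.000683) and lower in TC (-0.76 ± 0.07, adjusted p = 5.17e-09). Msmo1, which oxidises the methyl groups that are next removed, had 167 and 162 CPM in the TCZ libraries, 77.5 and 71 in the TC libraries and 161 and 148 in the control libraries. TC was at 0.481 of the control level (adjusted p = 4.78e-11), and TCZ differed from control by 0.09 with a 95% interval of -0.06 to 0.25. With a filter at 50 counts Msmo1 was called higher in TCZ than in control (0.15, adjusted p = 0.0265). Nsdhl, the dehydrogenase of that removal, had 48 and 43.6 CPM in the TCZ libraries, 27.8 and 25.8 in the TC libraries and 39.9 and 39.8 in the control libraries. Its rise in TCZ of 0.20 ± 0.08 lay near the threshold (adjusted p = 0.0316). It was lost when any library but TCZ 2 was left out, with an adjusted p of 0.0613 without TC 2, 0.0683 without TC 1, 0.126 without control 1, 0.139 without control 2 and 0.371 without TCZ 1. Library totals (0.958) and the unfiltered table (0.201) ended it too, in adjusted p.

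Hsd17b7, the keto-sterol reductase, was not called in TC (-0.15, 95% interval -0.29 to 0.00, adjusted p = 0.0798) and was 1.27-fold higher in TCZ than in control, at 119.8 and 113 CPM in the TCZ libraries, against 93.4 and 90.0 in the control libraries. Hsd17b7 was called lower in TC with library totals (-0.29, adjusted p = 0.000119) and with only the 2 groups compared (-0.16, 0.00779). A term for control 2 and TCZ 2 (-0.18, 0.0115) and a filter at 50 counts (-0.13, 0.0431) gave that call too. So did a replicate block with TC numbers swapped (-0.15, 0.0444), and leaving out control 2 and TCZ 2 (-0.18). Tm7sf2, a sterol reductase with an RPKM rank of 25 of 28 in TCZ and TC and 26 in control, had 8.31 and 8.77 CPM in the TCZ libraries, 4.14 and 4.57 in the TC libraries and 5.15 and 4.48 in the control libraries, and 1.76-fold the control level in TCZ (adjusted p = 0.000138). Ebp, the sterol isomerase, had 24.6 and 22.3 CPM in the TCZ libraries, 11.3 and 11.4 in the TC libraries and 21.9 and 20.7 in the control libraries. The desaturase gene Sc5d had 116 and 113 CPM in the TCZ libraries, 72.6 and 65 in the TC libraries and 132 and 116 in the control libraries, and its TCZ and control libraries overlapped. Ebp fell to 0.532 and Sc5d to 0.555 of the control level in TC (adjusted p = 3.31e-08 and 5.43e-09), and neither was called between TCZ and control. With a filter at 50 counts Ebp was called higher in TCZ than in control (0.20, adjusted p = 0.0458). Sc5d was called lower in TCZ when control 2 was left out (-0.23, adjusted p = 0.0399), also together with TCZ 2 (-0.20, 0.0468).

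**Figure D4:**
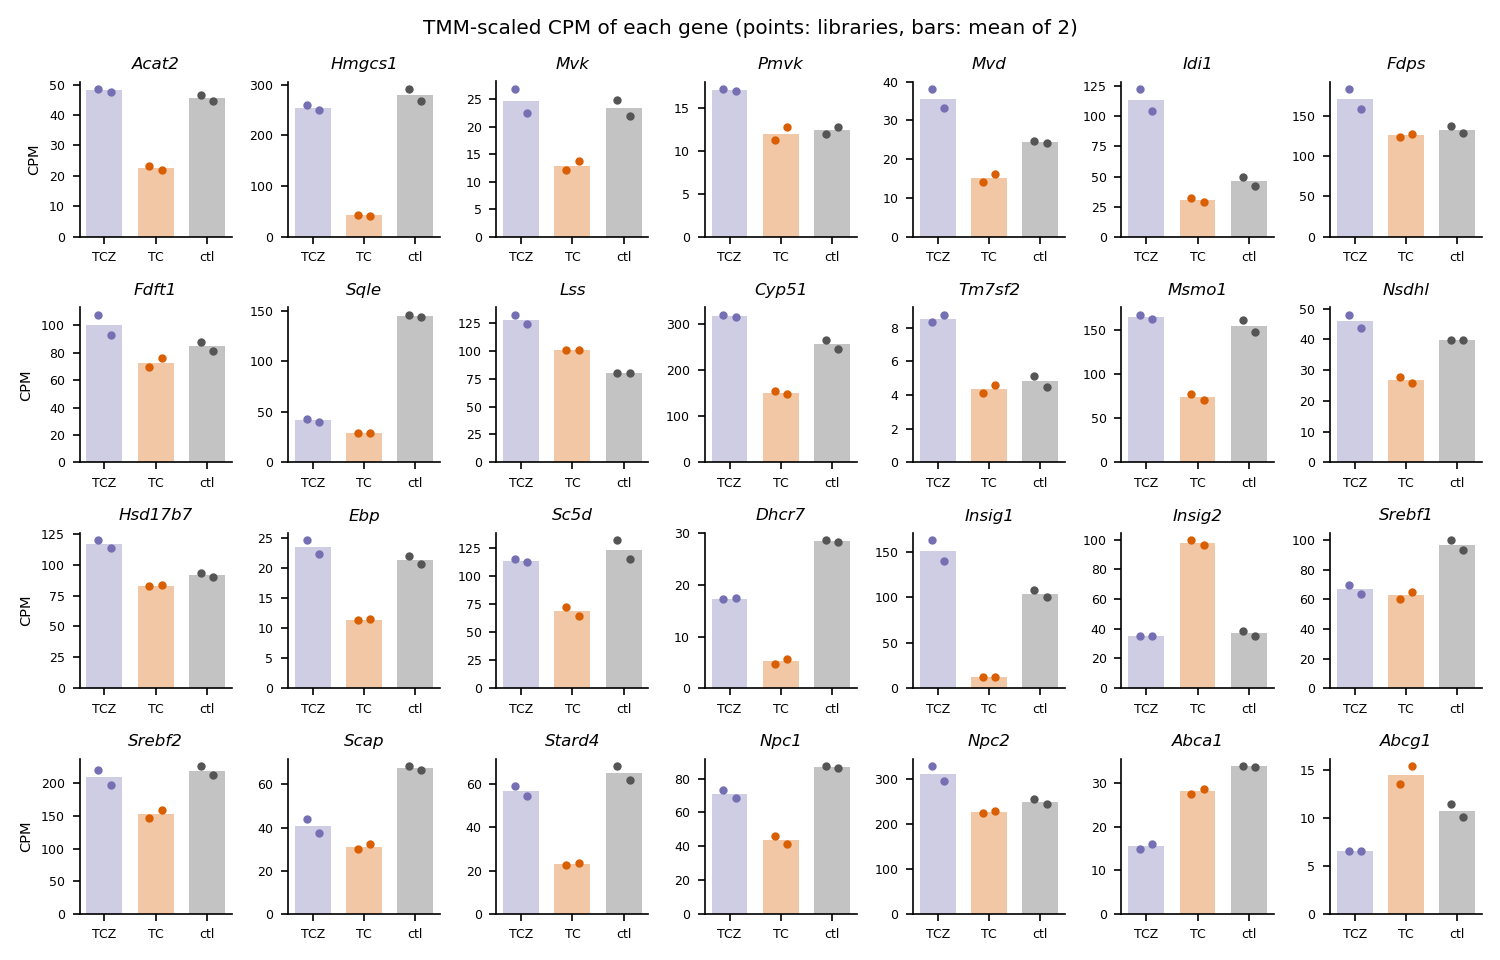
TMM-scaled CPM of the 28 genes, 1 panel each with its own axis from 0, for TCZ, TC and control (ctl) from left to right. Points are libraries and bars the mean of 2. Insig2 is the panel in which TC stands highest by the most, at 99.5 and 96.4 CPM.

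Of the 5 SREBP control genes 1 was higher and 2 were lower in TCZ, where 31.5% and 28.6% of all genes were, and 1 was higher and 4 were lower in TC, where 31.5% and 29.1% were. The TCZ counts lie near the background. In TC the INSIG pair moved in opposite directions. Insig1 (chromosome 5, 28071412 to 28078662, plus strand) is itself switched on by SREBP, while Insig2 (chromosome 1, 121304353 to 121332589, minus strand) is known to respond less to it. Insig1 had 163 and 140.1 CPM in the TCZ libraries, 12.8 and 12.2 in the TC libraries and 108 and 101 in the control libraries, so TC lay below and TCZ above control without overlap. It was at 0.12 of the control level in TC (-3.06 ± 0.09, adjusted p = 1.32e-17), 1.46-fold higher than control in TCZ (adjusted p = 3.85e-06) and 12.1-fold higher in TCZ than in TC (adjusted p = 6.54e-18). That last difference and the fall in TC had the greatest size of any of the 28 genes in their comparisons.

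Insig2 had 35.2 and 35.4 CPM in the TCZ libraries, 99.5 and 96.4 in the TC libraries and 38.2 and 35.4 in the control libraries, with TC alone high. It was 2.66-fold higher in TC than in control (adjusted p = 3.05e-13), at 0.36 of the TC level in TCZ (adjusted p = 4.15e-13), and not called between TCZ and control (-0.06, 95% interval -0.22 to 0.10, adjusted p = 0.498). On the length-scaled RPKM, Insig1 exceeded Insig2 6.01-fold and 5.15-fold in TCZ and 3.66-fold and 3.70-fold in control, while in TC the ratio was 0.168 and 0.164. Insig2 was thus the more abundant transcript of the pair in both TC libraries and the less abundant in the other 4. RefSeq lists 3 starts for Insig2, and gene counts cannot tell which of them was in use.

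**Figure D5:**
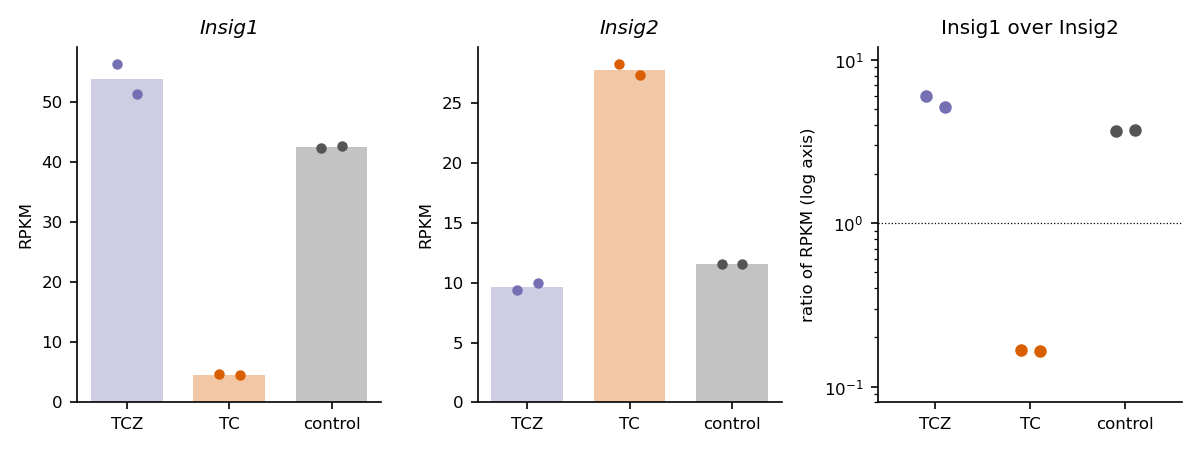
RPKM of Insig1 and Insig2 and their ratio in each library, for TCZ, TC and control from left to right (bars: mean of 2 libraries; points: libraries; the ratio is on a log axis with a dotted line at 1). The ratio is 5.15 to 6.01 in TCZ, 0.164 to 0.168 in TC and 3.66 to 3.70 in control.

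The genes of the SREBP factors and their escort were lower in TC in all 3 cases. Srebf2, whose product mainly serves cholesterol synthesis, had 219.7 and 198 CPM in the TCZ libraries, 147 and 158 in the TC libraries and 226 and 212 in the control libraries. TC was below control (-0.52 ± 0.08, adjusted p = 3.42e-06), and TCZ overlapped control (95% interval -0.23 to 0.09). Srebf1, which mainly serves fatty acid synthesis, had 70.0 and 63.8 CPM in the TCZ libraries, 60.6 and 64.9 in the TC libraries and 99.9 and 93.6 in the control libraries and was lower than control in TCZ (-0.53 ± 0.08, adjusted p = 3.24e-06) and in TC (-0.63 ± 0.08, adjusted p = 2.58e-07). TCZ and TC were not distinguished for Srebf1 (0.10, 95% interval -0.06 to 0.25, adjusted p = 0.302), and it was the single gene of the 28 with no call in that comparison. Over 114 bases it overlaps Rai1 on the other strand, which held 14488 counts against 18769 for Srebf1 and had folds of 0.277 in TCZ and 0.82 in TC over control. Reads from those shared bases cannot be told apart without the strand setting.

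Scap, the escort gene, had 43.9 and 37.3 CPM in the TCZ libraries, 30.2 and 32.2 in the TC libraries and 68.5 and 66.8 in the control libraries. It lay below control in TCZ (-0.73 ± 0.08, adjusted p = 9.14e-08) and further below in TC (-1.12 ± 0.08, adjusted p = 8.31e-11). The RPKM of Srebf2 over that of Srebf1 was 2.75 and 2.71 in TCZ, 2.12 and 2.14 in TC and 1.98 in both control libraries.

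Of the 3 genes for sterol transport inside the cell, 1 was higher and 2 were lower than control in TCZ. In TC none was higher and 2 were lower. Of all genes tested 31.5% were higher and 28.6% lower in TCZ, and 31.5% and 29.1% in TC. All 3 were higher in TCZ than in TC, against 28.2% of all genes. With 3 genes, the counts against control are no result about the step. Stard4 fell the most in TC. It encodes a carrier that moves cholesterol between membranes, and had 58.9 and 54.6 CPM in the TCZ libraries, 22.6 and 23.6 in the TC libraries and 68.2 and 61.7 in the control libraries. TC was at 0.356 of the control level (adjusted p = 3.8e-13). The TCZ difference of -0.19 ± 0.08 lay near the threshold (adjusted p = 0.0342). It was lost without control 1 (0.286), TC 1 (0.0578), TC 2 (0.053), TCZ 2 (0.231) or both control 2 and TCZ 2 (0.0521), in adjusted p. DESeq2 (0.0938), a filter at 50 counts (0.0579) and no filter (0.125) ended it too.

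Npc1, the lysosomal membrane transporter lost in most Niemann-Pick C disease, had 73 and 68.6 CPM in the TCZ libraries, 45.8 and 41.3 in the TC libraries and 87.4 and 86.4 in the control libraries, which is 0.816 of the control level in TCZ and 0.501 in TC (adjusted p = 0.002 and 1.58e-10). The gene 3110002H16Rik overlaps 8982 bases of Npc1 on the other strand. It held 6417 counts against 16322 for Npc1 and had folds of 1.19 in TCZ and 0.935 in TC over control. Reads of the pair cannot be told apart there without the strand setting, which also bears on the ratio below. Npc2, the soluble partner in the same step, was not called in TC (-0.14, 95% interval -0.29 to 0.02, adjusted p = 0.117) and was 1.25-fold higher in TCZ than in control, at 329 and 296 CPM in the TCZ libraries, against 257 and 244 in the control libraries. Npc2 was called lower in TC with library totals (-0.28, adjusted p = 3.12e-05) and with only the 2 groups compared (-0.145, 0.00645). A term for control 2 and TCZ 2 (-0.19, 0.0019) and a replicate block with TC numbers swapped (-0.13, 0.0464) gave that call too. So did leaving out control 2 and TCZ 2 (-0.18). The RPKM of Npc2 over that of Npc1 was 7.26 and 6.94 in TCZ, 7.94 and 9.00 in TC and 4.74 and 4.55 in control.

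Both export genes were lower in TCZ than in either other group. Of all genes tested, 28.6% were lower in TCZ than in control and 27.9% lower than in TC. Abca1 (chromosome 4, 53030789 to 53159988, minus strand), which loads cholesterol onto lipid-poor apolipoprotein, had 14.8 and 16.1 CPM in the TCZ libraries, 27.6 and 28.6 in the TC libraries and 33.9 and 33.8 in the control libraries. It was at 0.455 of the control level in TCZ (adjusted p = 2.15e-10) and at 0.83 in TC (adjusted p = 0.00773), and TCZ was lower than TC (log2 fold change -0.87 ± 0.09, adjusted p = 2.63e-08). The TC call did not hold without TC 1 (adjusted p = 0.0844) or in the unfiltered table (0.0801).

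Abcg1, which passes cholesterol to mature lipoprotein particles, had 6.54 and 6.58 CPM in the TCZ libraries, 13.5 and 15.4 in the TC libraries and 11.5 and 10.1 in the control libraries, with TCZ lowest and TC highest. TCZ was at 0.606 of the control level (adjusted p = 4.21e-05) and TC at 1.34 of it (adjusted p = 0.00369). This rise in TC did not pass without control 2 (adjusted p = 0.0734), TC 2 (0.0554) or both control 2 and TCZ 2 (0.0603). By RPKM rank among the 28, Abca1 and Abcg1 were 27 and 28 in TCZ and in control alike, and 26 and 27 in TC. In TCZ Abca1 had 1.29 and 1.48 RPKM and Abcg1 1.03 and 1.10, against 3.36 and 3.61 and 2.06 and 1.94 in control.

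Other genes of the pathway were read from 8 lists with 56 genes, all 56 of which were tested. Of all genes tested, 31.5% were higher and 28.6% lower in TCZ, and 31.5% higher and 29.1% lower in TC, against control, and 28.2% were higher in TCZ than in TC. Lbr, a nuclear membrane protein with sterol reductase activity, had 47.9 and 50.5 CPM in the TCZ libraries, 22.6 and 21.1 in the TC libraries and 47.2 and 45.5 in the control libraries. It was at 0.471 of the control level in TC (adjusted p = 6.72e-11) and 2.25-fold higher in TCZ than in TC (adjusted p = 4.45e-11). Among 9 SREBP targets of fatty acid and lipid supply 6 were lower and 2 higher in TC, 2 lower and 5 higher in TCZ against control, and 8 higher in TCZ than in TC. The elongase gene Elovl6 had 49.6 and 50.1 CPM in the TCZ libraries, 15.2 and 13.2 in the TC libraries and 73.5 and 75.3 in the control libraries. The fatty acid synthase gene Fasn had 598 and 554 CPM in the TCZ libraries, 238 and 234 in the TC libraries and 575 and 525 in the control libraries. Acly, which makes cytosolic acetyl-CoA, had 476 and 451 CPM in the TCZ libraries, 224 and 223 in the TC libraries and 318 and 296 in the control libraries, with TCZ highest. Me1, a source of NADPH, went the other way in TC, at 2.04-fold the control level (adjusted p = 1.93e-10).

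All 6 genes of lipoprotein uptake and lysosomal lipid were called lower than control, both in TCZ (median -0.46) and in TC (median -0.90). Of all genes tested, 28.6% were lower in TCZ and 29.1% in TC. The TCZ calls of Lrp1 (log2 fold change -0.176, adjusted p = 0.0357) and Lipa (-0.177, 0.0373) lay near the threshold. No results under alternative settings are given for this list, so those TCZ calls cannot be settled. The lipoprotein receptor gene Lrp8 had 33.6 and 36.9 CPM in the TCZ libraries, 11.3 and 10.3 in the TC libraries and 42.7 and 42.4 in the control libraries. Vldlr, another lipoprotein receptor, was at 0.577 in TCZ and 0.53 in TC of the control level, and the lipoprotein receptor gene Scarb1 at 0.637 and 0.546, in the same order.

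Of 9 genes for SREBP cleavage and ER degradation 2 were higher and 4 lower in TCZ, and 3 higher and 4 lower in TC, against control. With all-gene shares of 31.5% higher and 28.6% to 29.1% lower, these counts are no result about the list. Mbtps1, the first of the proteases that cleave SREBP, had 56.6 and 52.2 CPM in the TCZ libraries, 33.1 and 35 in the TC libraries and 152 and 142 in the control libraries, or -1.44 ± 0.08 in TCZ and -2.11 ± 0.08 in TC against control (adjusted p = 3.11e-13 and 5.87e-16). Rnf145, an ER ubiquitin ligase, had 13.7 and 12.9 CPM in the TCZ libraries, 16.8 and 16.7 in the TC libraries and 68.2 and 64 in the control libraries. Its TCZ level lay below its TC level, unlike that of Mbtps1.

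On the LXR arm 2 of 8 genes were higher and 3 lower in TCZ, and likewise 2 and 3 in TC, against control, again near those all-gene shares. The partner receptor gene Rxra had 10.5 and 10.7 CPM in the TCZ libraries, 20.6 and 21.1 in the TC libraries and 65.2 and 64.9 in the control libraries, and the LXR gene Nr1h2 had 17 and 17.4 CPM in the TCZ libraries, 20.8 and 20.4 in the TC libraries and 38.4 and 38.5 in the control libraries. Both were lowest in TCZ. Of 6 genes of esterification and oxysterols 2 were higher and 2 lower in TCZ, and 2 and 2 in TC, against control, also near the all-gene shares. Ch25h, which makes an oxysterol that keeps SREBP in the ER and is itself an interferon-stimulated gene, had 25.1 and 25.4 CPM in the TCZ libraries, 64.9 and 65 in the TC libraries and 11.1 and 9.95 in the control libraries. It was 2.38-fold higher in TCZ (adjusted p = 5.16e-11) and 6.13-fold higher in TC (adjusted p = 1.03e-16) than in control. The ester hydrolase gene Nceh1 was at 0.729 in TCZ and 0.496 in TC of the control level.

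Isoprenoid branch genes, which divert farnesyl diphosphate to other products, had 3 of 10 higher and 3 lower in each treated group against control, where 31.5% of all genes were higher and 28.6% to 29.1% lower, so the counts match the background. Pggt1b, a prenyltransferase subunit, had 104 and 110.5 CPM in the TCZ libraries, 135 and 136 in the TC libraries and 59 and 55.3 in the control libraries. Pdss1, of ubiquinone synthesis, was 1.48-fold higher in TCZ and 1.80-fold higher in TC than in control, and Nus1, of dolichol synthesis, was at 0.622 of control in TCZ and not called in TC (0.04, 95% interval -0.11 to 0.18). Among 6 cholesterol transport proteins 2 were higher and 2 lower in TCZ, near the all-gene shares, and 1 higher and 4 lower in TC. Gramd1a, an ER sterol transfer protein gene, had 92.3 and 86 CPM in the TCZ libraries, 84.3 and 88.3 in the TC libraries and 34.9 and 30.6 in the control libraries, and its relative Gramd1b had 4.60 and 3.89 CPM in the TCZ libraries, 12.9 and 14.9 in the TC libraries and 16.1 and 15.3 in the control libraries. The oxysterol-binding protein gene Osbp was at 0.754 in TCZ and 0.684 in TC of the control level.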

How the data were processed

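The authors deposited 1 table with raw counts per gene and RPKM for 6 libraries, per the file headers. The submitters' processing notes name bcl2fastq, HISAT2 2.1.0, HTSeq and the mm10 build, while strand setting, annotation version and filters were not given in the sources used here. The deposited RPKM equalled counts divided by gene length and library total (largest difference 5e-07) and served for levels between genes. Being scaled by library totals, RPKM differs between groups from TMM-scaled CPM. Counts were tested in R 4.3.3 with edgeR 4.0.16 (filterByExpr by group, minimum count 10; TMM; glmQLFit and glmQLFTest; group as the only factor, 6 libraries, 3 residual degrees of freedom), with Benjamini-Hochberg adjustment over 18563 genes and a threshold of 0.05. SE was taken from the log2 fold change and its F value. DESeq2 1.42.0, limma-voom (limma 3.58.1), other scalings and filters, the replicate block and left-out libraries were alternatives.

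All 28 members were named, and from each of 8 lists of other pathway genes the 2 with the smallest adjusted p in each treated group against control, some of which are not reported here. The members and lists were chosen with earlier results of these data known. The labels do not say that libraries came from separate cultures, so p-values reflect only how far these libraries differ, possibly for technical reasons. Libraries of a group differed beyond counting noise (chi-square per gene 4.50 to 7.59). Intervals are at 95%.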

Additional observations from a re-analysis of the deposited data

How the results depend on the processing

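In TCZ against TC the counts of 24 genes higher and 3 lower held under each of the 16 alternative settings fixed at the start and the one added later. In TC against control 2 to 3 genes were higher and 18 to 23 lower over these alternatives, and in TCZ against control 10 to 14 were higher and 7 to 12 lower. Scaling by library totals shifted the all-gene median log2 fold change by -0.20 for TCZ against control, -0.14 for TC against control and -0.06 for TCZ against TC, so fold changes are relative to the TMM scale. Over all alternatives, 1369 fold changes of single genes kept sign and call, 27 lost a call, 24 gained one and 8 changed sign. None of these 8 was called with all libraries and TMM scaling. In TCZ against control they were Acat2 (-0.121), Mvk (-0.123), Msmo1 (-0.104) and Ebp (-0.062) with library totals. With 1 library left out at a time, Mvk ranged between -0.079 and 0.196 (-0.026 without control 2) and Srebf2 between -0.156 and 0.010 in TCZ against control, and Pmvk between -0.132 and 0.046 in TC against control. The cause was not tested.

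Leaving out 1 library at a time ended the calls of Abca1, Abcg1 and Fdft1 in TC against control and of Fdft1, Nsdhl and Stard4 in TCZ against control, as given above. The libraries of a group share numbers with other groups, but nothing in the labels pairs them, and deviations of like-numbered libraries correlated across 8579 genes at -0.02 (TC and control), 0.28 (TCZ and control) and -0.17 (TCZ and TC). With the replicate number as a block 20 of the 28 genes were lower and 3 higher in TC against control, 12 higher and 8 lower in TCZ against control, and 11240, 11166 and 10435 genes in all were called for TC and for TCZ against control and for TCZ against TC, against 11264, 11164 and 10414 without it. The pairing with TC numbers crossed, chosen after the data were seen, gave 11357, 11376 and 10637. With 2 libraries per group, differences near the threshold, such as those of Nsdhl and Stard4 in TCZ against control, cannot be settled.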
